A study of Homo sapiens with 10 samples.

Results

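A group of 48 lysosomal genes was chosen by name from the 63677 gene identifiers of the count tables, by their known roles. It held 2 sorting receptors, 2 transcription factors, 7 membrane proteins, 3 soluble cofactors, 9 proteases, 10 glycosidases, 5 sulfatases, 5 lipid hydrolases and 5 genes of the proton pump. RNA-Seq had been done on lines of RS4;11, an established BCP-ALL line (acute lymphoblastic leukemia of B-cell precursors) that is sensitive to venetoclax (VEN), an inhibitor of the anti-apoptotic protein BCL-2. The 5 VENins lines had been raised in parallel under stepwise rising VEN and were VEN-insensitive, while the 5 VENsens lines had received the solvent DMSO alone for the same time. By the paper's methods, VENins lines stayed under VEN, which was washed out before analyses, and VENsens lines were kept without it. Ongoing exposure and insensitivity therefore cannot be told apart in this comparison. All 10 lines descended from the same cell line, and each was measured in 1 library of 20631907 to 28323643 gene counts. The comparison asked which lysosomal transcripts differed between VENins and VENsens lines. Levels are given as CPM, gene counts scaled to library sizes that were adjusted by the TMM method, and fold changes are on the log2 scale, VENins against VENsens, so that a negative value is lower in VENins.

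Lysosomes are acidified organelles that break down proteins, glycans and lipids delivered by endocytosis and autophagy. Most of their soluble hydrolases are tagged with mannose 6-phosphate in the Golgi, bound there by the sorting receptors and carried to endosomes, where the falling pH releases them and the receptors are recycled. The transcription factors TFEB and TFE3 can raise many lysosomal genes together through E-box elements in their promoters. In B-lineage cells the same compartment also serves antigen processing, for which cathepsin S is best known.

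Of the 48 members, 46 passed the filter on low counts, and 1 of them, the mannose-6-phosphate receptor gene IGF2R, passed the test across all genes (edgeR's quasi-likelihood test, adjusted p under 0.05). Across all genes 33 of 16756, or 0.197%, passed, 27 of them lower and 6 higher in VENins. This balance depended on the fit: 100 were lower and 83 higher once the trends of each library on length and GC had been removed, 150 were lower and 67 higher with DESeq2 and the same model, and 381 were lower and 358 higher with DESeq2 and no line number in the model. The total of 33 also rested on single lines: it was 57, 6, 17, 331 and 9 when the lines numbered 1, 2, 3, 4 and 5, respectively, were left out of both groups. IGF2R ranked at place 3 of all tested genes by its p-value. At an unadjusted p under 0.05 there were 8 members (6 lower, 2 higher), or 17.4% of those tested, close to the 16.2% of all tested genes (8.38% lower, 7.79% higher). In 3 members, IGF2R, TPP1 and CTSS, every VENins line lay below every VENsens line, as was so for 2.3% of all tested genes, and no member showed the opposite order, against 2.36% of all tested genes, or 4.66% in both directions. The median log2 fold change of the tested members was -0.026 (quartiles -0.11 and 0.051, 28 lower and 18 higher), beside 0.0035 over all tested genes (quartiles -0.091 and 0.10). After the trends of each library on gene length and GC content had been removed, the member median was -0.0015, beside 0.010 over all tested genes. Summed over all members, the level was 2749, 2781, 2656, 2712 and 2764 CPM in VENsens lines 1 to 5 and 2608, 2626, 2583, 2615 and 2705 CPM in VENins lines 1 to 5. VENins line 5 lay within the VENsens range on this sum, and the other VENins lines lay below it. VENins line 4 and VENins line 5 stood farthest from the other lines of their group over all tested genes, with a root mean square log2 difference of 0.28 and 0.29, where the other libraries were at 0.20 to 0.26. Outside IGF2R and CTSH, the fitted changes of the members spanned -0.20 to 0.19, as the plot of fitted changes by role shows. In bulk RNA, fewer cells with a transcript and less of it per cell cannot be told apart.

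**Figure D1:**
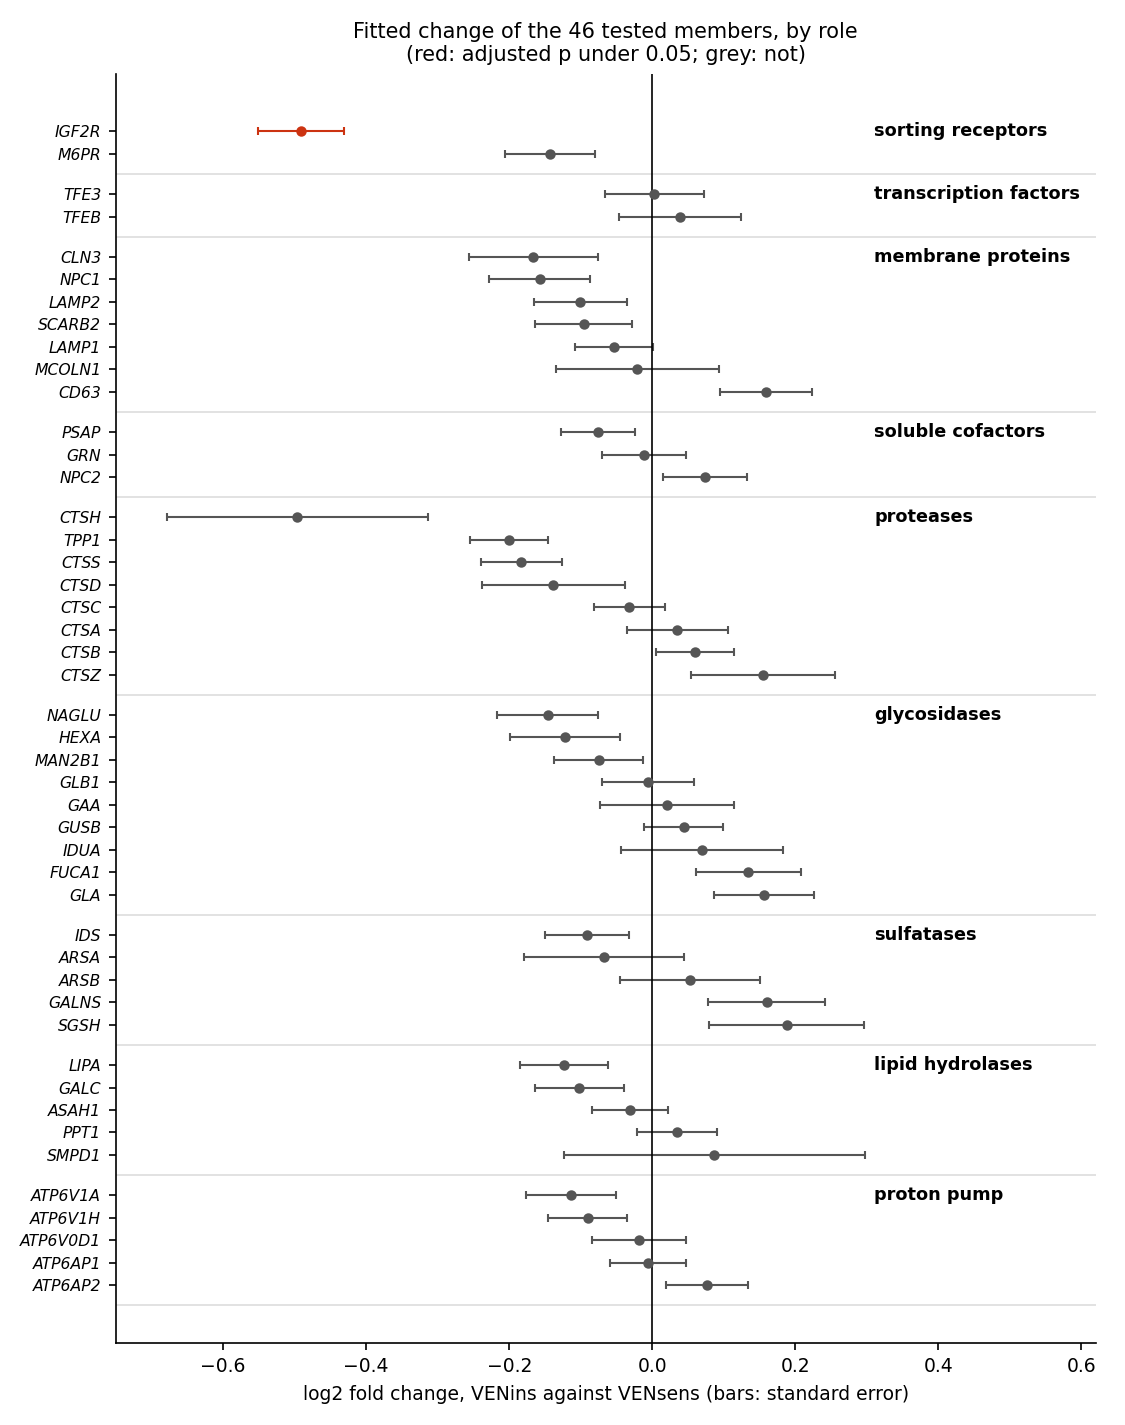
Fitted log2 fold change, VENins against VENsens, of each of the 46 tested members (points) with its standard error (bars), grouped by role. IGF2R (red, adjusted p under 0.05) lies at -0.49, CTSH at -0.50 with a standard error of 0.18, and all other members lie between -0.20 and 0.19.

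Both mannose-6-phosphate receptors were expressed. IGF2R (ENSG00000197081, chromosome 6) encodes the cation-independent receptor, which carries hydrolases to endosomes and, at the cell surface, takes up insulin-like growth factor II for degradation. It stood at 120.0, 136, 109, 116 and 115 CPM in VENsens lines 1 to 5 and at 84.1, 83.7, 77.0, 91.0 and 88.2 CPM in VENins lines 1 to 5. The highest VENins line was thus below the lowest VENsens line. IGF2R fell from 119 ± 10.3 to 84.8 ± 5.31 CPM (SD, n = 5 each). Its log2 fold change was -0.49 (standard error 0.060), with an adjusted p of 0.00245 from edgeR's test. Under the 14 other settings and subsets of lines it ranged from -0.53 to -0.40, with adjusted p-values between 2.05e-11 and 0.0373, and it passed in each of them. IGF2R is a long transcript, with 17.8 kb of annotated exon, and the libraries of the groups differed in how levels followed gene length. Across 16312 tested genes, which are not independent replicates, Spearman's rho between a library's deviation from the mean of all libraries and exon length was 0.056, 0.27, -0.029, 0.15 and 0.11 in VENsens lines 1 to 5 and -0.013, -0.19, -0.17, -0.10 and -0.15 in VENins lines 1 to 5. With GC content, rho was 0.36, -0.27, 0.080, 0.073 and -0.084 in VENsens lines and -0.27, -0.17, -0.27, -0.055 and 0.55 in VENins lines in the same order, so that VENins line 5 and VENsens line 1 stood apart from the others. With each library's trend on length and GC content taken out, the log2 fold change of IGF2R was -0.40 (adjusted p = 0.00152 from the same test). IGF2R also belongs to the insulin-like growth factor axis, where it is known for clearing the ligand rather than for signalling.

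M6PR (ENSG00000003056, chromosome 12) encodes the smaller, cation-dependent receptor, which shares the sorting task at the Golgi. Its levels were 87.5, 98.8, 91.4, 93.7 and 101 CPM in VENsens lines 1 to 5 and 90.0, 80.4, 87.5, 89.2 and 80.5 CPM in VENins lines 1 to 5. The groups overlapped, since VENins line 1 and VENins line 4 were above VENsens line 1. The log2 fold change was -0.14 (standard error 0.063) and did not pass (adjusted p = 0.280, and 0.115 to 0.718 under the other settings). Per kilobase of exon, M6PR averaged 23.8 CPM over the 10 lines and IGF2R 5.72 CPM. Summed without regard to length, both receptors came to 214 ± 13.3 CPM in VENsens and 170.3 ± 6.82 CPM in VENins (SD, n = 5 each), and every VENins line was below every VENsens line on this sum. Most of that fall came from IGF2R (mean 119 to 84.8 CPM), with less from M6PR (94.4 to 85.5 CPM). The sum therefore does not show a joint fall of both receptors.

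**Figure D2:**
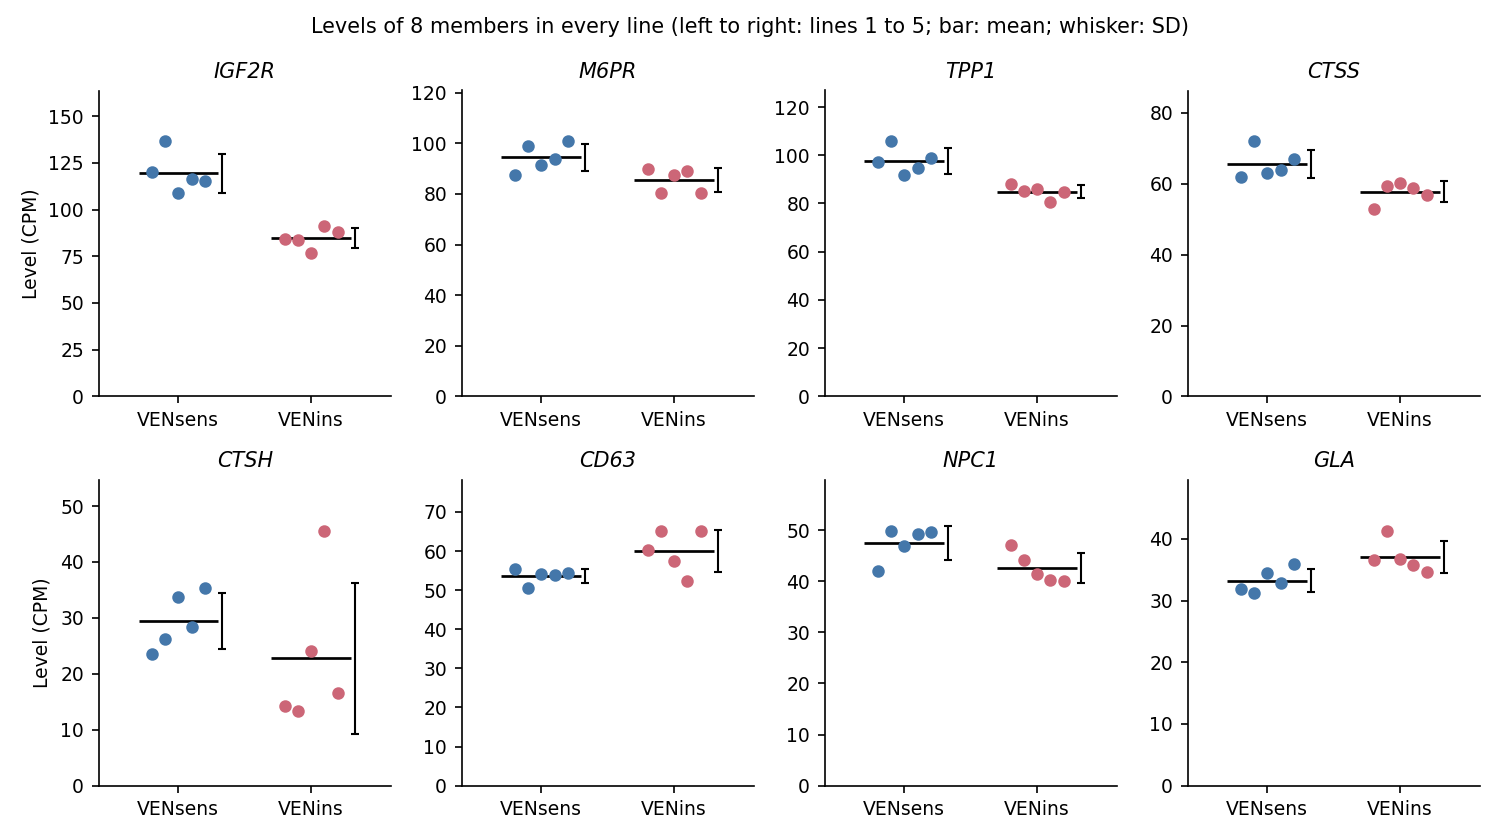
Levels (CPM, linear axes from 0) of 8 members in VENsens (blue) and VENins (red) lines 1 to 5, with the group mean (bar) and SD (whisker). The groups are apart for IGF2R, TPP1 and CTSS, and VENins line 4 stands at 45.6 CPM for CTSH, where the other VENins lines lie between 13.4 and 24.1 CPM.

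Because TFEB and TFE3 bind E-box elements, RefSeq promoters (GRCh38.p14, 250 bases before to 50 after each start) were searched for the E-box hexamer CACGTG and for TCACGTGA, an octamer that contains it. Both read the same on either strand. Promoters were matched for 37 of the 48 members, and the octamer was in those of 8 members (ATP6V0D1, CLN3, CTSA, GAA, GALNS, IGF2R, LAMP1, MCOLN1), while 1.18% of all 27305 genes with a promoter held it. Counted by promoter, it was in 9 of 56 promoters of members and in 0.98% of all 35116. The hexamer was in the promoters of 13 members and of 8.77% of all genes, or by promoter in 14 of those of members and in 7.26% of all. The promoters of IGF2R, the member that passed, and M6PR, the other receptor, are shown with those of LAMP1 and ATP6V0D1, octamer carriers that did not pass. Capitals mark the octamer, or in M6PR, which lacks the octamer, the hexamer. Further hexamers in LAMP1 that are not part of the octamer were left in lower case. The windows are IGF2R (chr6:159968832-159969131, strand +), M6PR (chr12:8949361-8949660, strand -), LAMP1 (chr13:113296989-113297288, strand +) and ATP6V0D1 (chr16:67481108-67481407, strand -), each written 5′ to 3′ on the strand of the gene.
IGF2R: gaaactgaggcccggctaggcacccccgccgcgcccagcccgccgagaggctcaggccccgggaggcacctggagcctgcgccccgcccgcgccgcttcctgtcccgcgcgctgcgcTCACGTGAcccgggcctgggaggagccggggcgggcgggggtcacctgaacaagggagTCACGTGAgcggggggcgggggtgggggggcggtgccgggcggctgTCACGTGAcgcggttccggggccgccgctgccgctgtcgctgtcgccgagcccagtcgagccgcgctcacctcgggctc
M6PR: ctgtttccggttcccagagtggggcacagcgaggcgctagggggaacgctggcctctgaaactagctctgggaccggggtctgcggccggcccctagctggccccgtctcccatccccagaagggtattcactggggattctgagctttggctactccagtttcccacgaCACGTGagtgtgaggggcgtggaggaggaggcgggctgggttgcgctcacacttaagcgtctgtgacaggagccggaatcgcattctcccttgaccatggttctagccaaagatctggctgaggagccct
LAMP1: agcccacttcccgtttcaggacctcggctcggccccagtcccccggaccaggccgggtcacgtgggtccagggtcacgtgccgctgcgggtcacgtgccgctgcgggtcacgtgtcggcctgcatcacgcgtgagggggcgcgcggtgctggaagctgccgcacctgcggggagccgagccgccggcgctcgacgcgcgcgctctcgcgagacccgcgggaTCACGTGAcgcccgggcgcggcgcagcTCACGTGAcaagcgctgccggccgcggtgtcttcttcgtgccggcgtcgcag
ATP6V0D1: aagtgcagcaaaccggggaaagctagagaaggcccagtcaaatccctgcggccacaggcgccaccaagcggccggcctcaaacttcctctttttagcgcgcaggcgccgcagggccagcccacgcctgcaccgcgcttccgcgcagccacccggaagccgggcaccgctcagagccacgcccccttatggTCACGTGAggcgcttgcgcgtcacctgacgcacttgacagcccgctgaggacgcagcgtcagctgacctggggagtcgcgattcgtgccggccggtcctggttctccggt

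The IGF2R window held 3 octamers, which began 133, 75 and 29 bases before the start site. In LAMP1 there were 2, beginning 29 and 2 bases before the start, in ATP6V0D1 1, beginning 60 bases before it, and the hexamer of M6PR began 80 bases before its start. Octamer members lay on both sides of 0. Besides IGF2R, the 7 tested octamer members had a median log2 fold change of -0.018 (range -0.17 for CLN3 to 0.16 for GALNS), beside -0.0056 for the 23 tested members with neither motif. Over all genes, 223 tested genes had the octamer in a promoter, with a median of -0.033 beside 0.0035 for all tested genes. Of these 2 passed the test (0.897%, beside 0.197% of all tested genes), and IGF2R was 1 of the 2, so that the share rests on 1 other gene. These matches describe letters in a window and do not show binding.

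**Figure D3:**
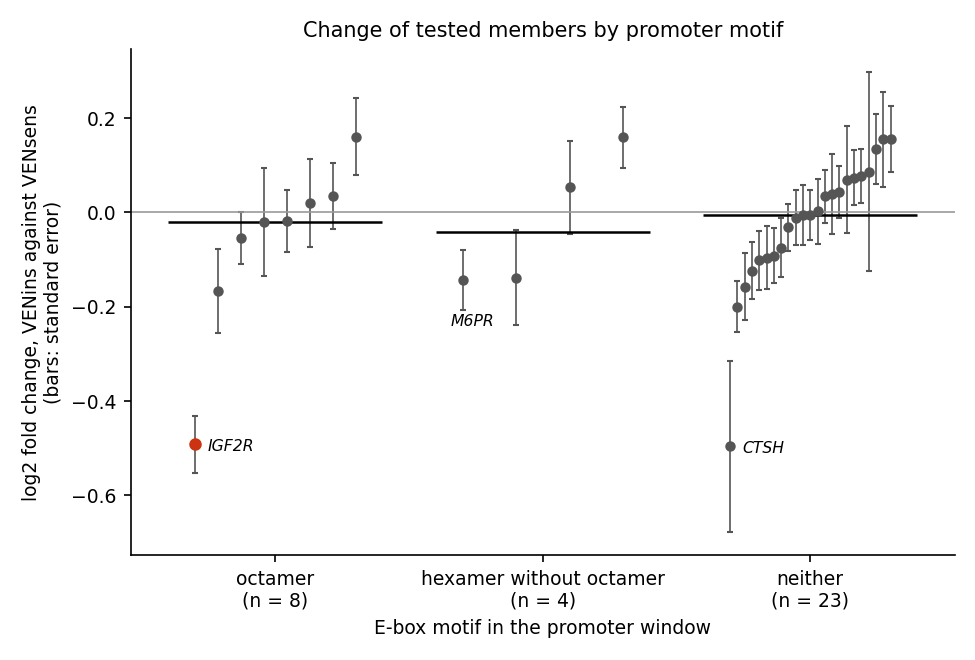
Log2 fold change (points) and standard error (bars) of the tested members with a matched promoter, by whether the window held the octamer, the hexamer without the octamer, or neither; black lines are group medians. IGF2R (red) is the member that passed, and the other octamer members lie between -0.17 and 0.16.

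Neither transcription factor gene passed the test. TFEB (ENSG00000112561) stood at 27.9, 26.6, 26.1, 25.4 and 24.0 CPM in VENsens lines 1 to 5, and at 25.4, 27.2, 22.9, 26.0 and 32.6 CPM in VENins lines 1 to 5. TFE3 (ENSG00000068323) stood at 31.1, 28.0, 27.8, 30.2 and 30.1 CPM in VENsens and at 27.6, 29.6, 28.8, 27.9 and 33.7 CPM in VENins lines in the same order. The VENins lines surrounded the VENsens lines for both genes, with line 5 the highest and line 3 or line 1 the lowest. Log2 fold changes were 0.039 for TFEB (standard error 0.085, adjusted p = 0.868) and 0.0026 for TFE3 (standard error 0.069, adjusted p = 0.991). Neither sign was steady, since each turned in at least 1 of the subsets that left out the lines of a number, and that of TFE3 also with library size as the scaling. Without the lines numbered 5, TFEB was at -0.063 and TFE3 at -0.038. Per kilobase of exon, TFEB averaged 4.68 CPM and TFE3 6.88 CPM. Both factors are controlled largely by phosphorylation and by entry to the nucleus, which RNA counts do not measure.

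Among the 7 membrane proteins, none passed (edgeR, and DESeq2 with the same model called 0). An unadjusted p under 0.05 was reached by 2 of them, or 28.6%, beside 16.2% of all tested genes. Of the class, 6 had negative and 1 positive values (median -0.10). Per kilobase of exon, CD63, a tetraspanin of late endosomes and secreted vesicles, was highest at 21.6 CPM, and CLN3, the gene mutated in juvenile Batten disease, was lowest at 0.886 CPM. This rank rested on length, which joined all annotated exons of a gene and came to 9.86 kb for CLN3. By CPM alone, MCOLN1 (mean 5.36 in VENsens and 5.25 in VENins) was below CLN3 (9.23 and 8.24). CD63 was also the member of this class with a positive value. It stood at 55.3, 50.5, 54.2, 53.7 and 54.2 CPM in VENsens lines 1 to 5 and at 60.2, 65.2, 57.4, 52.3 and 65.0 CPM in VENins lines 1 to 5. VENins lines 1, 2, 3 and 5 were above all VENsens lines and VENins line 4 was among them (log2 fold change 0.16, standard error 0.065, adjusted p = 0.245). NPC1, the membrane protein that hands cholesterol out of the lysosome, had the smallest p among the negative values of the class. Its levels were 41.9, 49.9, 46.8, 49.2 and 49.6 CPM in VENsens and 47.1, 44.1, 41.5, 40.3 and 40.0 CPM in VENins lines 1 to 5. VENins lines 3, 4 and 5 were below all VENsens lines, and VENins lines 1 and 2 were above VENsens line 1 (log2 fold change -0.16, standard error 0.071, adjusted p = 0.288). It was -0.083 once the trends on length and GC were removed, and -0.24 without the lines numbered 1. CLN3 had the lowest value of the class (-0.17, standard error 0.090). The main lysosomal membrane glycoproteins LAMP1 and LAMP2 were at -0.054 and -0.10. Over all classes, 13 members overlapped another gene with at least 5% as many counts, 11 of them on the opposite strand, CD63, NPC1, CLN3, NPC2, SGSH, LIPA, PPT1, CTSA and GALNS among them. Overlap was taken over whole gene spans, introns included, and shared exons were not looked for. The kit did not mark strand, so reads from any stretch shared with a neighbour cannot be told apart by strand. How far the levels of these members were affected was not tested.

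The soluble cofactors included the most abundant members. PSAP, the precursor of the saposins that present sphingolipids to their hydrolases, averaged 95.2 CPM per kilobase and was the highest of all members. GRN, the gene of progranulin, followed at 40.8, and NPC2, the soluble cholesterol carrier that works with NPC1, was the lowest of the class at 16.1 CPM per kilobase. Their log2 fold changes were -0.076, -0.012 and 0.074, each within 2 standard errors of 0 and not past the test (smallest adjusted p = 0.496).

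Of the 8 tested proteases, 3 had an unadjusted p under 0.05 (37.5%), all with lower values in VENins, beside 16.2% of all tested genes (8.38% lower). TPP1, a tripeptidyl peptidase that trims peptides from their amino end, was at 97.0, 106, 91.9, 94.6 and 98.7 CPM in VENsens lines 1 to 5 and at 88.0, 85.1, 85.9, 80.6 and 84.9 CPM in VENins lines 1 to 5. CTSS, cathepsin S, which cleaves the invariant chain of MHC class II, was at 61.9, 71.9, 63.1, 63.8 and 67.1 CPM in VENsens and at 53.0, 59.5, 60.4, 58.9 and 56.9 CPM in VENins lines. For both genes every VENins line was below every VENsens line, by a small margin. Neither passed: the log2 fold change was -0.20 for TPP1 (standard error 0.055, adjusted p = 0.113) and -0.18 for CTSS (standard error 0.057, adjusted p = 0.146). DESeq2 without the line number in the model called both (adjusted p = 0.00620 and 0.0389), while over all settings the adjusted p ran from 0.00620 to 0.540 for TPP1 and from 0.0389 to 0.561 for CTSS.

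CTSH, cathepsin H, an aminopeptidase, varied most among the VENins lines relative to its mean. It was at 23.5, 26.2, 33.8, 28.3 and 35.3 CPM in VENsens lines 1 to 5 and at 14.2, 13.4, 24.1, 45.6 and 16.5 CPM in VENins lines 1 to 5. VENins lines 1, 2 and 5 were below all VENsens lines, line 3 was among them and line 4 was above them. The log2 fold change of -0.50 had a standard error of 0.18 and did not pass (adjusted p = 0.1998). With no line number in the model it was -0.37 with both edgeR (adjusted p = 0.464) and DESeq2 (adjusted p = 0.592). Without the lines numbered 4 it was -0.81 and passed (adjusted p = 0.000107, and 5.69e-07 to 0.662 over all settings). The same VENins line 4 stood apart in the B-lineage markers DNTT, at 27.3 CPM where the other VENins lines had 1.08 to 3.38, and BLNK, at 9.55 CPM against 1.18 to 3.09, and the part of that difference in CTSH was not tested. Per kilobase, CTSC, the dipeptidyl peptidase that activates granule proteases, was the highest protease at 16.7 CPM and CTSH the lowest tested at 4.43 CPM. CTSZ, a carboxypeptidase, had the largest value of the class (0.16, standard error 0.10), which was 0.30 without the lines numbered 1 and 0.083 without those numbered 5, and CTSB and CTSD, the main cysteine and aspartic cathepsins, were at 0.060 and -0.14. CTSC was at -0.032, and at 0.027 once the trends on length and GC were removed.

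CTSL and the sialidase gene NEU1 were the members that were not tested. Both were listed at 0 in all 10 libraries. For counting error alone a count of 0 allows up to 3 counts, or 0.106 to 0.145 CPM, but other genes beside them were also at 0. Of the 69 other protein-coding genes that start within 500000 bases of NEU1 in GENCODE 29 (GRCh38), 62 had no count in any library, and all 69 had at most 10 counts over the 10 libraries. NEU1 lies in the MHC region, and among these neighbours are genes that most cells use. Around CTSL, 2 of 3 such genes were at 0. No level or fold change of NEU1 or CTSL is given. The 0 of NEU1 is not evidence that the gene was silent. For CTSL, 3 neighbours are too few to tell a gap in counting from a silent gene.

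Of the glycosidases, 9 were tested and none passed (edgeR, and DESeq2 with the same model called 0). At an unadjusted p under 0.05 there was 1, or 11.1%, beside 16.2% of all tested genes. There were 4 negative and 5 positive values, with a median of 0.020. GUSB, beta-glucuronidase, had the highest level per kilobase (24.7 CPM) and HEXA, the alpha subunit of beta-hexosaminidase, the lowest (1.55 CPM). GUSB has pseudogene copies, of which GUSBP1 alone held 8.81% as many counts as GUSB, so its level is uncertain. GLA, the alpha-galactosidase that is deficient in Fabry disease, was at 31.8, 31.2, 34.4, 32.8 and 35.9 CPM in VENsens lines 1 to 5 and at 36.6, 41.3, 36.8, 35.8 and 34.7 CPM in VENins lines 1 to 5. VENins lines 1, 2 and 3 were above all VENsens lines, and VENins line 4 and VENins line 5 were not (log2 fold change 0.16, standard error 0.070, adjusted p = 0.289). NAGLU, which removes N-acetylglucosamine from heparan sulfate, had the opposite sign. Its levels were 25.2, 21.0, 22.4, 25.1 and 24.6 CPM in VENsens and 19.6, 19.2, 21.8, 23.3 and 23.0 CPM in VENins lines, with VENins line 1 and VENins line 2 below all VENsens lines (log2 fold change -0.15, standard error 0.071, adjusted p = 0.327).

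Sulfatases and lipid hydrolases gave no call either (0 and 0 with DESeq2 in the same model). At an unadjusted p under 0.05 there were 0 and 0, beside 16.2% of all tested genes. Among the sulfatases, IDS, which acts on dermatan and heparan sulfate, had the highest level per kilobase (7.94 CPM) and the lowest fold change (-0.092, -0.14 without the lines numbered 1 and -0.022 once the trends on length and GC were removed), ARSB had the lowest level (1.03 CPM), and SGSH, the sulfamidase of heparan sulfate breakdown, had the largest fold change (0.19, standard error 0.11). VENins line 5 alone was at 16.9 CPM of SGSH, where the other VENins lines were at 11.0 to 14.0 CPM. Without the lines numbered 5 the fold change of SGSH was 0.055, and once the trends on length and GC were removed it was 0.23. LIPA, the acid lipase that frees cholesterol from its esters, was at 61.5, 68.1, 63.2, 68.9 and 70.8 CPM in VENsens lines 1 to 5 and at 59.3, 63.4, 62.4, 65.1 and 55.1 CPM in VENins lines 1 to 5. These ranges overlapped (log2 fold change -0.12, standard error 0.061, adjusted p = 0.338, and -0.064 without the lines numbered 5), and IFIT2 and IFIT3, interferon-induced genes, overlap LIPA on the opposite strand. PPT1, a palmitoyl-protein thioesterase, had the highest level of the lipid hydrolases at 17.9 CPM per kilobase. The acid sphingomyelinase gene SMPD1 was the lowest tested member, at 0.381 CPM per kilobase. Its log2 fold change of 0.086 had a larger standard error of 0.21, so that the value does not exclude a moderate difference.

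**Figure D4:**
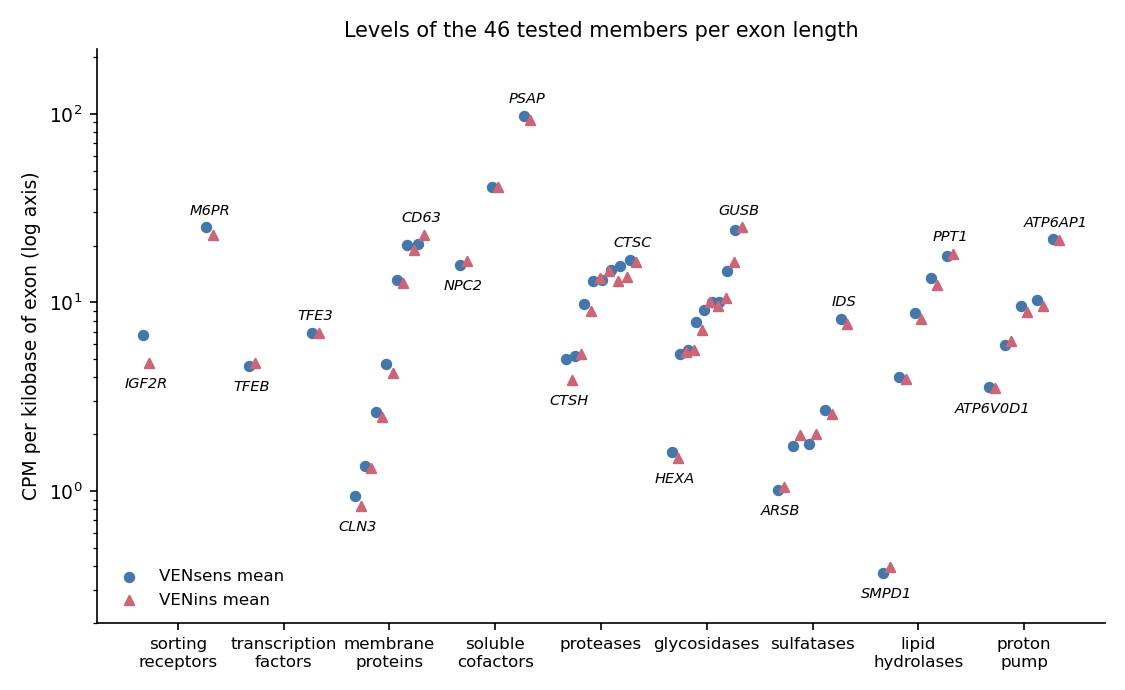
Mean level per kilobase of exon (CPM per kb, log axis) of the 46 tested members in VENsens (circles) and VENins (triangles), by role, with the highest and lowest gene of each class named. PSAP is highest at 95.2 and SMPD1 lowest at 0.381 over all 10 lines. Lengths join all annotated exons of a gene, so ranks also depend on the annotation.

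The proton pump of the vesicle membrane acidifies the compartment. Its 5 members had log2 fold changes from -0.11 for ATP6V1A, the catalytic subunit, to 0.076 for ATP6AP2, an accessory subunit also known as the prorenin receptor. None passed (edgeR, smallest adjusted p = 0.396, DESeq2 with the same model 0). At an unadjusted p under 0.05 there were 0, beside 16.2% of all tested genes. ATP6AP1, the other accessory subunit, had the highest level per kilobase at 21.5 CPM and ATP6V0D1, a subunit of the membrane part, the lowest at 3.54 CPM. Their fold changes of -0.0056 and -0.018 turned positive once the trends on length and GC were removed (0.016 and 0.045). A further list of 14 pump subunits, 12 of them tested, had a median of 0.045. The gene with the smallest p in it was ATP6V1D (0.18, standard error 0.071, adjusted p = 0.226).

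The wider pathway was read from 8 lists of 110 further genes, of which 98 were tested. None passed with edgeR, 20 had an unadjusted p under 0.05 (15 lower, 5 higher), and DESeq2 with the same model called 2. Those 20 were 20.4% of the tested genes of the lists, where 16.2% of all tested genes (8.38% lower, 7.79% higher) reached such a p and DESeq2 called 217 of 16756. The median log2 fold change of the tested genes of the wider lists was -0.027. GNPTAB encodes the catalytic part of the enzyme that starts the mannose-6-phosphate tag. It was at 50.2, 68.5, 50.4, 56.9 and 59.9 CPM in VENsens lines 1 to 5 and at 48.7, 43.5, 45.3, 50.3 and 42.6 CPM in VENins lines 1 to 5. VENins line 4 was just above the lowest VENsens line, and the other VENins lines were below all VENsens lines (log2 fold change -0.30, standard error 0.081, adjusted p = 0.103). CTSO, a little-studied cathepsin, was at 39.9, 42.1, 35.3, 37.4 and 42.2 CPM in VENsens and at 36.3, 33.2, 32.0, 30.1 and 27.3 CPM in VENins lines. VENins line 1 reached into the VENsens range (log2 fold change -0.31, standard error 0.075, adjusted p = 0.0877). With DESeq2 and the same model the adjusted p was 0.0487 for GNPTAB and 0.0344 for CTSO, and over all settings it ran from 0.00226 to 0.561 and from 0.00392 to 0.484.

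Apart from the tagging genes, the medians of the wider lists lay between -0.078 for 21 further membrane proteins and 0.19 for the 3 cathepsin inhibitors. By smallest p in each list, the sorting receptor SORL1 was at -0.21 (standard error 0.069), the retromer subunit VPS29 at 0.14 (standard error 0.052) and the cation channel TPCN2 at -0.35 (standard error 0.12). LAMTOR5, part of the complex that tethers mTORC1 to the lysosome, was at 0.20 (standard error 0.058), and cystatin B, an inhibitor of cysteine cathepsins encoded by CSTB, at 0.19 (standard error 0.071). The adjusted p-values of these genes were between 0.126 and 0.221. LAMTOR5 was called by DESeq2 without the line number in the model (adjusted p = 0.0217, and up to 0.561 over all settings). In 3 genes of the wider lists, GGA2, GM2A and SLC17A5, every VENins line was below every VENsens line, and in 1, VPS29, every VENins line was above, beside 2.3% and 2.36% of all tested genes. Retromer and recycling genes had a median of 0.019 and the adaptors and other sorting receptors of the Golgi -0.032, while the 4 genes of tagging and sulfatase activation, GNPTAB included, had -0.12. Other hydrolases were at -0.028 and the regulators and relatives of TFEB at 0.019. Among the 12 wider genes below the filter, ATP6V1G2 and CTSV were listed at 0 in every library, and AP1S1 and LAPTM4B each had 1 count in all. ATP6V1G2 also lies in the MHC region, where 55 of its 65 neighbours within the same distance were at 0, so its level cannot be read.

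The cell type was checked on marker genes. All 11 B-lineage progenitor markers were detected, and their summed level was 3739, 3706, 3638, 3734 and 3712 CPM in VENsens lines 1 to 5 and 3594, 3655, 3626, 3568 and 4017 CPM in VENins lines 1 to 5, with IGLL1 the most abundant (723 CPM on average). Of these markers 6 had an unadjusted p under 0.05 (3 lower, 3 higher), or 54.5%, beside 16.2% of all tested genes. PAX5, the B-lineage commitment factor, was the marker that passed (log2 fold change -0.31, standard error 0.053, edgeR adjusted p = 0.0272, lower in 5 of 5 VENins lines than in any VENsens line). Lysosomes are abundant in macrophages, whose 10 markers summed to 16.8 ± 1.39 CPM in VENsens and 17.2 ± 1.99 CPM in VENins (SD, n = 5 each), led by CSF1R, with MARCO at 0 and CD14 and LYZ under 1 CPM in every library. Single markers went both ways without passing the test, CSF1R at 0.23 (standard error 0.10), CD33 at -0.48 (standard error 0.23) and LYZ at -0.47 (standard error 0.30), with a smallest adjusted p of 0.261. The megakaryocyte markers summed to 45.6 ± 5.56 and 33.9 ± 7.80 CPM, nearly all of it ITGA2B, with PF4 and PPBP at 0. ITGA2B, an integrin subunit, was at -0.48 (standard error 0.10, adjusted p = 0.0610 with edgeR, called by DESeq2 with the same model), and the part of this difference in the lysosomal values was not tested. T-cell markers summed to at most 1.08 CPM in any library, led by CD3E with CD8A at 0, and the erythroid gene ALAS2 was at no more than 0.235 CPM, with HBA1 and HBA2 at 0. Stroma markers reached at most 3.34 CPM, nearly all COL1A1 with DCN at 0, and epithelium markers at most 0.366 CPM, led by CDH1 with EPCAM, KRT18 and KRT19 at 0.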

How the data were processed

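RNA-Seq had been done with a TruSeq kit that does not mark strand, and gene counts were used as deposited by the authors, 1 table per line. The submitters' processing notes name bcl2fastq 2.20.0.422, Bowtie2 2.3.5.1, SAMtools 1.9, HTSeq 0.9.1 and hg19 (GRCh37), while the strand setting and annotation release are not given in the sources used here. Bowtie2 does not split reads over introns, and HTSeq drops ambiguous and low-quality alignments: 52.7 to 54.2% of reads were counted on genes, 7.29 to 7.78% on no gene, 3.69 to 3.98% were ambiguous, 24.6 to 26.1% had low alignment quality and 9.39 to 10.2% were not aligned. These summary lines were left out of library sizes. Reads from stretches shared by genes on opposite strands cannot be told apart by strand. Of 63677 identifiers, 52526 were named from GENCODE 29 (GRCh38), which also gave exon lengths, and the rest held 0.907% of counts. Exon length joined all annotated exons of a gene over its transcripts, so levels per kilobase and their ranks also depend on the annotation. Promoters came from RefSeq (GRCh38.p14).

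Genes were filtered with filterByExpr (minimum count 10, minimum total 15) and scaled by TMM. The quasi-likelihood F test of edgeR 4.0.16 (limma 3.58.1, R 4.3.3), with line number and condition in the model, was adjusted by Benjamini-Hochberg over all 16756 tested genes (threshold 0.05), two-sided. The standard errors given were worked back from it, as the size of the log2 fold change over the square root of F. The study describes a paired analysis with DESeq2, and taking the line number as the pair was a choice made here. The replicates are separately kept lines from 1 parental line with 1 library each. With line number in the model, p-values measure the spread of the differences between same-numbered lines, which were not seen to be pairs. Tables and figures were made in Python 3.11.15. Steps were tested on simulated data. Floors (3 counts) cover counting error only.

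Alternatives were no replicate block, DESeq2 1.42.0 with and without it, RLE factors, library size, no filter, 10 counts in every library, pseudogene counts added, length and GC trends (splines with 4 degrees of freedom) taken out, and each line number left out. Members and lists were chosen with earlier results of these data known. Named with values in every line were both receptors, TFEB, TFE3, members past the threshold and the 10 with the smallest p. Also named were the members of highest and lowest level per kilobase and largest and smallest fold change in each class, untested members, and the smallest p of each wider list. Other genes were chosen after their values were seen. 1 marker gene is not reported here.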

Additional observations from a re-analysis of the deposited data

Results flagged for a closer look

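GUSB stood at 93.5 CPM in VENsens line 2, below the other VENsens lines at 97.6 to 98.7 CPM, a gap of 0.797 of the range of the group where 0.71 is the critical value for 5 samples. This was 1 of 72 groups of lines checked over 36 genes, and chance alone gives about 1 in 20.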

How the results depend on the processing

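IGF2R passed the test under all 14 alternatives. Among the comparisons of named genes with an alternative, 477 kept their direction and side of the threshold, 12 passed it only under the alternative and 13 changed sign, none of these 13 past the threshold. For SMPD1 the 2 DESeq2 fits kept the direction but gave no adjusted p. The count of called genes, 33 here, was 739 with DESeq2 and no replicate block, 217 with DESeq2 and the block, 664 of 32884 genes with no filter, 149 with no replicate block in edgeR, 183 once the trends on length and GC were removed, and 6 to 331 with each line number left out. Members called were 3 with DESeq2 and no replicate block (IGF2R, CTSS, TPP1), 2 with no filter (IGF2R, CTSH) and 1 to 2 with a line number left out. The member median was -0.0015 with trends taken out and -0.048 to -0.017 with a line number left out. Signs changed for TFE3 with library size alone (-0.0036), and with trends taken out for CTSC (0.027), ATP6AP1 (0.016) and ATP6V0D1 (0.045). With a line number left out, log2 fold changes ran from -0.038 to 0.046 for TFE3, -0.063 to 0.10 for TFEB, -0.062 to 0.20 for SMPD1, -0.015 to 0.11 for ARSB, -0.027 to 0.015 for ATP6AP1 and -0.041 to 0.015 for ATP6V0D1. Without a change of sign, the log2 fold changes of these further genes moved by more than 1.5 times, over all alternatives, from 0.049 to 0.13 for ATP6AP2, -0.15 to -0.057 for ATP6V1A, -0.20 to -0.10 for CLN3, 0.11 to 0.24 for CSTB, -0.81 to -0.34 for CTSH, 0.083 to 0.30 for CTSZ, 0.095 to 0.21 for GLA, 0.017 to 0.070 for GUSB, -0.17 to -0.036 for HEXA, -0.14 to -0.022 for IDS, -0.15 to -0.064 for LIPA, -0.17 to -0.092 for NAGLU, -0.24 to -0.083 for NPC1, 0.048 to 0.10 for NPC2, 0.0036 to 0.069 for PPT1, -0.10 to -0.048 for PSAP, 0.055 to 0.25 for SGSH and -0.26 to -0.12 for SORL1. The causes were not tested.

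Line numbers were not seen to pair the lines: same-numbered lines correlated at -0.10 to 0.028 in their deviations from the group means, and 0 of 10 lines correlated best with its own number. The replicate block lowered the edgeR count from 149 to 33, and IGF2R passed in both fits.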
